A study of Homo sapiens with 7 samples.

Results

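DNA methylation is written, copied and removed by a small set of enzymes, and 9 of their genes were described here across all libraries of the series: the DNA methyltransferases DNMT1, DNMT3A and DNMT3B, the maintenance cofactor UHRF1, the dioxygenases TET1, TET2 and TET3, and the isocitrate dehydrogenases IDH1 and IDH2. They were chosen by symbol, and all 9 were found among 26364 symbols in the count tables and passed the filter on low counts. The cells were U937, a human monocytic line, and its derivative U937 B412. B412 cells express the PLZF/RARA fusion protein when exposed to zinc; the fusion, which joins the repressor PLZF to the retinoic acid receptor alpha, is the product of a translocation found in some acute promyelocytic leukaemias. The group MT_mock held 3 libraries of parental cells (U937 MT) in 0.1 mM ZnSO4. B412_mock held 2 libraries of B412 cells in 0.1 mM ZnSO4, and B412_GSK126 held 2 libraries of B412 cells in 0.1 mM ZnSO4 with 2.5 µM GSK126, an inhibitor of the histone methyltransferase EZH2. The protocol gives B412 cells 24 h of zinc before 96 h of GSK126 with zinc, and gives no time for the parental cells. Zinc was thus common to all groups, B412 is 1 derivative line, and no B412 cells without zinc were analysed here, so the line and the fusion cannot be told apart.

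DNMT3A and DNMT3B place methyl groups on unmethylated CpG dinucleotides, and DNMT1, guided by UHRF1 to hemimethylated CpGs behind the replication fork, copies the pattern to the new strand. TET enzymes oxidise 5-methylcytosine, which leads to its removal, and need 2-oxoglutarate, which IDH1 makes in the cytosol and IDH2 in mitochondria. DNMT3A, TET2, IDH1 and IDH2 are recurrently mutated in acute myeloid leukaemia. Gene-level counts carry no information on mutations, on enzyme activity or on methylation itself.

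Total counts lay between 12736244 and 14848130 per library, and 14727 to 15994 genes had at least 1 count. Levels are given as CPM, counts scaled to the same total in every library. The first principal component of log2 CPM held 65.7% of the variance and parted the libraries into 2 sets that cross the groups. Replicate 3 of MT_mock fell on one side with replicate 2 of each B412 group, together called set 2, and the remaining 4 libraries are called set 1. The labels name no batch. Each comparison is therefore given from an edgeR quasi-likelihood fit without covariate and from one with the library set as an added term; since the sets come from these same counts, p-values of the latter may be too small. Adjusted p is by Benjamini-Hochberg over 13521 genes, and a gene is said to have risen or fallen where it is under 0.05. Of 11 myeloid markers 10 were tested, among them SPI1 at 1108 to 1972 counts, while CSF1R, the receptor of the macrophage growth factor, had 2 to 9 counts. Of the markers of other lineages, MS4A1, GATA1 and PF4 had 0 counts in all libraries. Summed erythroid and megakaryocyte markers were at 0.606 to 1.69 CPM in MT_mock, 0.707 to 9.73 in B412_mock and 1.03 to 8.76 in B412_GSK126. The high values were those of the set 2 libraries of B412, where HBA1, which has a near-identical copy, had 126 and 89 counts, against 5 to 22 in the other 5 libraries. Summed fibroblast and epithelial markers were at 0.404 to 2.98 CPM in MT_mock, 1.78 to 2.67 in B412_mock and 2.64 to 4.01 in B412_GSK126; KRT8 among them had 0 counts in MT_mock and 1 to 11 in the B412 libraries. Summed myeloid markers were at 1920 to 6940 CPM in MT_mock, 887 to 2650 in B412_mock and 1450 to 4960 in B412_GSK126. Most of each sum was MPO alone, at 1420 to 6020, 472 to 1770 and 1000 to 4190 CPM in these groups. With the library-set term MPO and CD68 fell in B412_mock against MT_mock, with log2 differences of -1.82 and -1.63 (edgeR adjusted p = 0.000212 and adjusted p = 0.00662). The myeloid markers did not fall as a set: in the same fit 5 of the 10 tested lay above 0 and 5 below (median -0.05). Summed over 7 T, B and NK markers, the level was 56.6 to 77.1 CPM in MT_mock, 75.4 to 111 in B412_mock and 98.8 to 151 in B412_GSK126, and in B412_mock NCAM1 rose by 1.09 and CD79A fell by 2.11 (edgeR adjusted p = 0.00605 and adjusted p = 0.0197). The part of these markers in the results below was not tested.

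The promoters of IDH1, IDH2 and UHRF1 are shown first, since CpG is the substrate of the enzymes described. IDH1 and IDH2 passed between the lines only in the fit with the library-set term. UHRF1 had the largest log2 difference and did not pass. RefSeq (GRCh38.p14) lists 21 windows for the 9 genes, each from 250 bases before to 50 bases after a transcript start. The capitals mark CpG dinucleotides. For each gene the window nearest to the start of a principal GENCODE transcript is given. For UHRF1 a further window is shown, chosen because it held the match described below it, and a nearer one, 223 bases from the principal start, is not printed. IDH1 also has a second window that is not printed, 62 bases from a principal start and with 20 CpGs.
IDH1, chr2:208254409-208254708, minus strand: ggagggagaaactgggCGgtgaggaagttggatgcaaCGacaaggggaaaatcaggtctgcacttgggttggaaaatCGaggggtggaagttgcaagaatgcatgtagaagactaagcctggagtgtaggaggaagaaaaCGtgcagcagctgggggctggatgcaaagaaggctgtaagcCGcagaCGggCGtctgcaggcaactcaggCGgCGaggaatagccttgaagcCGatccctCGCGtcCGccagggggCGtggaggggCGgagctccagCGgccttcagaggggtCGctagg
IDH2, chr15:90100572-90100871, minus strand: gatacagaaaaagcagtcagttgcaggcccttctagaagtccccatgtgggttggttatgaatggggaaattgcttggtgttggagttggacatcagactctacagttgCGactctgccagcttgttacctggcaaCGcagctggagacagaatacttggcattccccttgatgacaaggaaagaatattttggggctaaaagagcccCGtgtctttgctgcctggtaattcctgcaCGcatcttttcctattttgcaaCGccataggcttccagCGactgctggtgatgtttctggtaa
UHRF1, chr19:4910117-4910416, plus strand: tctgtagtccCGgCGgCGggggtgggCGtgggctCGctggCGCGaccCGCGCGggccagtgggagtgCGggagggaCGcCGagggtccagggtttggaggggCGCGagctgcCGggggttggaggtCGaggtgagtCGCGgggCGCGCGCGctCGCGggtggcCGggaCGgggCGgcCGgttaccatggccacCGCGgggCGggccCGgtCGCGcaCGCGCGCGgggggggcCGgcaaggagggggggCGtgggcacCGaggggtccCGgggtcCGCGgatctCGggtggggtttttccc
UHRF1, chr19:4909251-4909550, plus strand: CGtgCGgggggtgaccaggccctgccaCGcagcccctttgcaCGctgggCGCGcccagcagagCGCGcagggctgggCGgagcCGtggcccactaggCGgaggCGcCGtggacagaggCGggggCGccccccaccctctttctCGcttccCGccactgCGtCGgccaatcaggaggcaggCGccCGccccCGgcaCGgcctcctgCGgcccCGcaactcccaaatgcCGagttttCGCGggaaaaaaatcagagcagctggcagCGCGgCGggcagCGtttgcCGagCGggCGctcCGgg
The IDH1 window held 17 CpGs, close to the median of 14 over 35116 windows, and the first UHRF1 window held 46, at percentile 97.1. The IDH2 window held 6; it is the only one listed, and its start lies 1883 bases from the principal one, so it does not show the main promoter. The upstream UHRF1 window, 866 bases from the principal start, held 1 match to the E2F word TTTCCCGC, searched on both strands. This word occurs in 1.63% of all windows, but the window was chosen for its match, so that share does not measure how unusual it is. The unprinted UHRF1 window, with 40 CpGs, and the one at the principal start held none. A second E2F word, TTTGGCGC, was in none of the 4 windows shown and in 0.652% of all windows. AGGTCA, a word within retinoic acid receptor sites, also searched on both strands, was in none of these 4 windows and in 13.8% of all windows. Such matches describe letters only and were not tested against the expression values.

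Per length of exon, IDH2 and DNMT1 were the most abundant of the 9 genes and TET1 and TET2 the least, in every group. In MT_mock the level per kilobase was 88.5 ± 25.6 CPM per kb for IDH2, 63.4 ± 29.9 for DNMT1, 33 ± 28 for IDH1, 4.69 ± 4.79 for TET3, 3.5 ± 1.61 for UHRF1, 1.62 ± 0.701 for DNMT3A, 0.963 ± 0.245 for DNMT3B, 0.498 ± 0.25 for TET2 and 0.432 ± 0.236 for TET1 (SD, n = 3 each). The ranges of neighbours in this order overlapped, except for IDH1, at 14.3 CPM per kb or more, and TET3, at 10.2 or less. In B412_mock UHRF1, at 7.43 ± 0.838 CPM per kb, stood above TET3 at 4.02 ± 2.73, and DNMT3B, at 2.03 ± 1.41, stood above DNMT3A at 0.935 ± 0.184 (SD, n = 2 each). The order in B412_GSK126 was that of B412_mock. The first of these B412_mock orders had no overlap between the ranges (6.84 to 8.02 against 2.09 to 5.95), and the second overlapped.

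**Figure D1:**
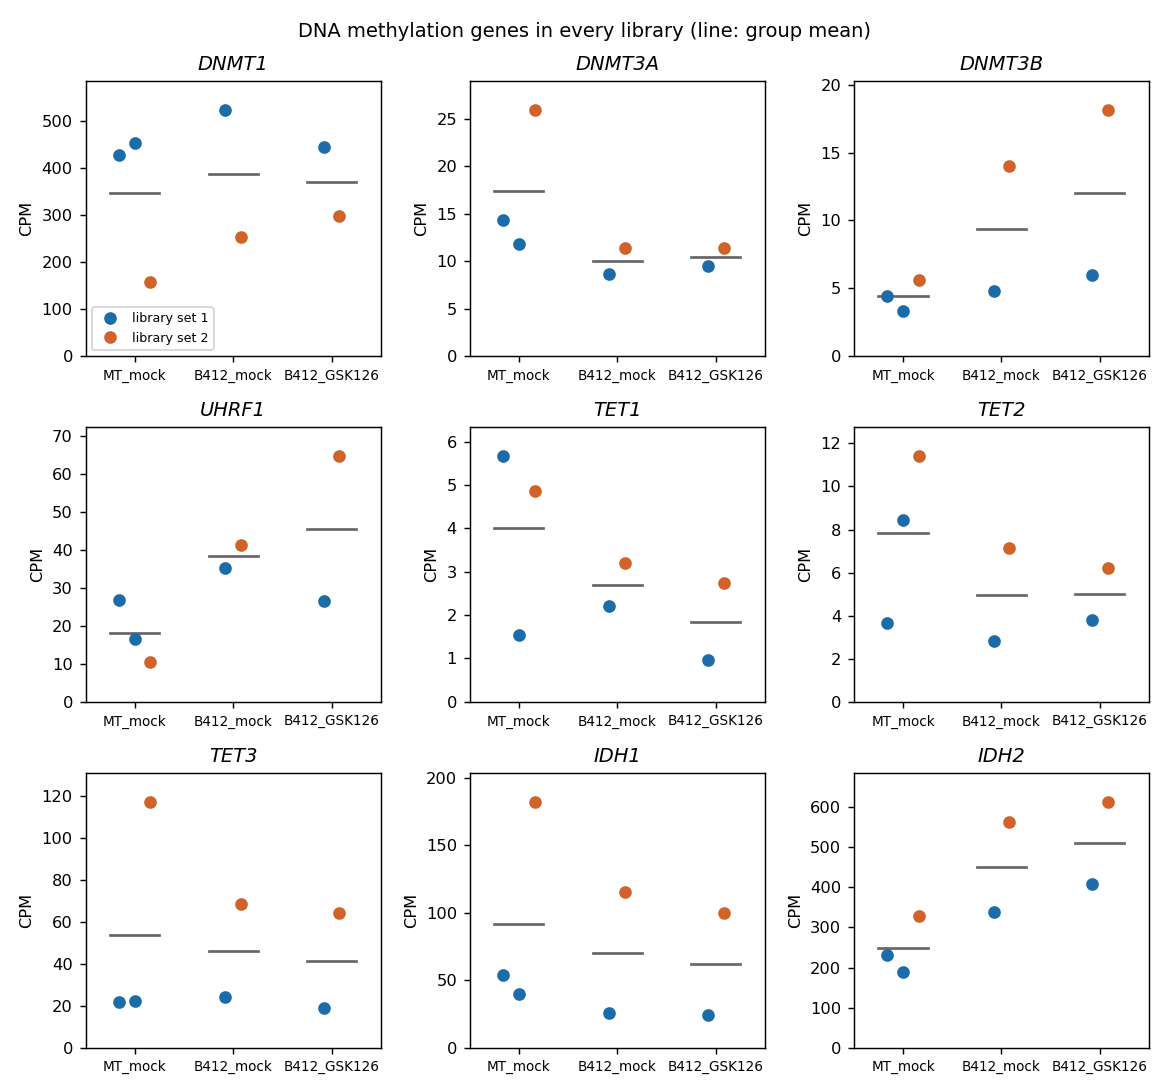
Level of each of the 9 genes in CPM (y axis, from 0, a scale of its own per gene) in every library of MT_mock, B412_mock and B412_GSK126 (x axis); points are libraries coloured by library set and lines are group means. IDH2 lies higher in all 4 B412 libraries than in the 3 MT_mock libraries, while within each group DNMT1 is lower and IDH1 and TET3 are higher in set 2.

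B412_mock was first set against MT_mock, to ask how the PLZF/RARA line differs from the parental line. IDH2 rose and IDH1 fell in B412_mock in the fit with the library-set term, and the other 7 genes did not pass. These were 2 of 9 genes called, beside 2.35% of all genes tested (0.851% higher and 1.5% lower); without the term 0 of 9 were called, beside 0% of all genes, and 0 of 9 had an unadjusted p under 0.05, beside 2.54%. DESeq2 and limma-voom without the term also called 0 of 9. With the term 4 of 9 had an unadjusted p under 0.05, against 14.6% of all genes: IDH2, IDH1, DNMT3A and UHRF1. The median log2 difference of the 9 was -0.29 with the term, and that of all genes -0.008. Separate cultures are not stated in the labels for the replicates, so the p-values rest on library-to-library spread that could be technical.

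IDH2, the mitochondrial NADP-dependent enzyme, was at 231, 188 and 328 CPM in MT_mock replicates 1 to 3 and at 338 and 563 CPM in B412_mock replicates 1 and 2. The groups did not overlap, although MT_mock replicate 3 came close to B412_mock replicate 1. The log2 difference was 0.72 ± 0.138 (SE) with the term, 1.64-fold (edgeR adjusted p = 0.0202), and 0.80 ± 0.355 without it (edgeR adjusted p = 1). It was 0.72 within set 1 and 0.70 within set 2. Between 0.65 and 0.80 with each library left out, it lost its call without MT_mock replicate 2 (adjusted p = 0.0793), B412_mock replicate 1 (adjusted p = 0.5) or B412_mock replicate 2 (adjusted p = 0.297), where edgeR's fit takes a lone sample to vary like the other groups.

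IDH1, the cytosolic counterpart, was at 54, 40 and 182 CPM in MT_mock and at 25.6 and 115 CPM in B412_mock. The groups overlapped: both set 2 libraries were above all of set 1, and within each set B412_mock was the lower. The log2 difference was -0.80 ± 0.181 (SE) with the term, 1.74-fold lower (edgeR adjusted p = 0.0429), with -0.84 within set 1 and -0.74 within set 2. Without the term it was -0.47 ± 0.911 (edgeR adjusted p = 1), and 7 alternatives to that fit gave between -0.80 and -0.01. The call was lost without MT_mock replicate 2 (adjusted p = 0.0616), MT_mock replicate 3 (adjusted p = 0.0917), B412_mock replicate 1 (adjusted p = 0.805) or B412_mock replicate 2 (adjusted p = 0.368), and with limma-voom (adjusted p = 0.0564). IDH1-AS1, on the opposite strand and sharing no exon bases, had 100 counts over all libraries, while IDH1 had 326 to 2467 in each.

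The count ratio of IDH2 to IDH1, looked at after the values were seen, put these differences side by side within each library. In set 1 it was 4.28 and 4.69 in MT_mock, 13.2 in B412_mock and 16.7 in B412_GSK126. In set 2 it was 1.81 in MT_mock, 4.91 in B412_mock and 6.14 in B412_GSK126. The ratio was higher in both B412 groups than in MT_mock, over all libraries and within each set, and was not tested.

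**Figure D2:**
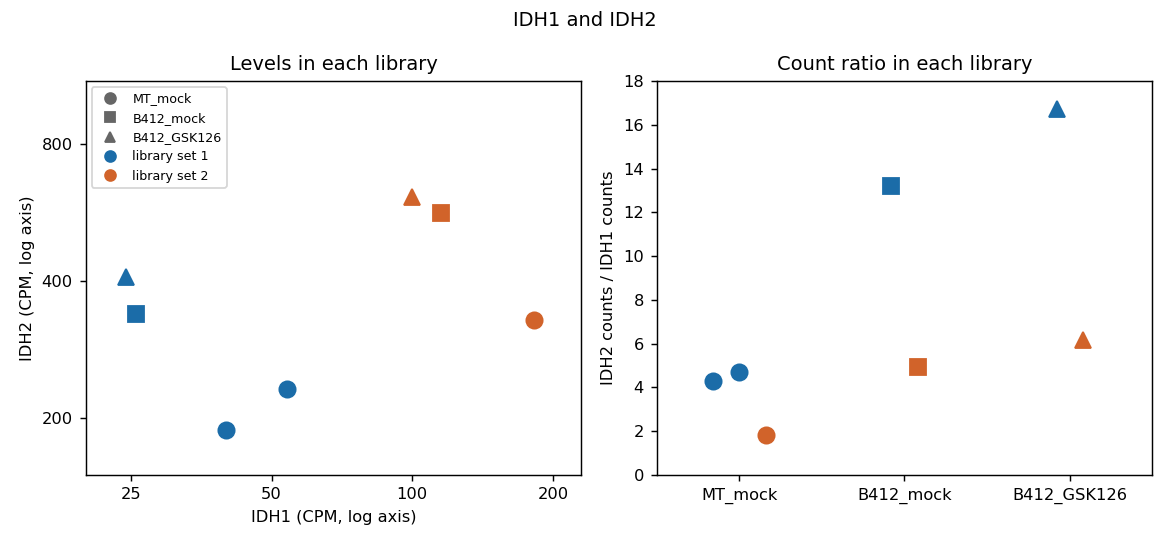
Left, IDH2 against IDH1 in CPM (both log axes); right, the ratio of IDH2 counts to IDH1 counts by group (y axis from 0). Each point is 1 library, with shape for the group and colour for the library set. Within each set the B412 libraries lie above and to the left of MT_mock, with ratios of 4.91 to 16.7 against 1.81 to 4.69.

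Among the methyltransferases, the de novo enzymes lay on opposite sides of 0 and none passed. DNMT3A was at 14.4, 11.8 and 25.9 CPM in MT_mock and at 8.64 and 11.4 CPM in B412_mock, without overlap. Its log2 difference was -0.86 ± 0.292 (SE) with the term (edgeR adjusted p = 0.181) and -0.83 ± 0.44 without it (edgeR adjusted p = 1), with -0.56 within set 1 and -1.25 within set 2. DNMT3B was at 4.45, 3.33 and 5.6 CPM in MT_mock and at 4.79 and 14 CPM in B412_mock. Only B412_mock replicate 2 stood apart, and the groups overlapped. The log2 difference of DNMT3B was 0.69 ± 0.364 (SE) with the term (edgeR adjusted p = 0.425), 0.33 within set 1 and 1.23 within set 2. DNMT3B counts were 0.216 to 0.308 of DNMT3A counts in MT_mock, 0.555 and 1.23 of them in B412_mock, and 0.628 and 1.58 of them in B412_GSK126, a ratio also chosen after the values were seen. Without MT_mock replicate 3 the log2 difference with the term was -0.55 for DNMT3A and 0.30 for DNMT3B.

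DNMT1, the maintenance methyltransferase, was at 427, 452 and 158 CPM in MT_mock and at 522 and 254 CPM in B412_mock. Its libraries were ordered by set before group, and B412_mock was the higher within each set, by 0.27 and 0.61 on the log2 scale. The log2 difference was 0.37 ± 0.174 (SE) with the term (edgeR adjusted p = 0.356) and 0.14 ± 0.622 without it; it was 0.16 with the term when MT_mock replicate 3 was left out. UHRF1 was at 26.9, 16.6 and 10.5 CPM in MT_mock and at 35.2 and 41.3 CPM in B412_mock, without overlap. Its log2 difference was 1.04 ± 0.438 (SE) with the term (edgeR adjusted p = 0.316) and 1.02 ± 0.523 without it (edgeR adjusted p = 1). The difference was 0.76 within set 1 and 1.88 within set 2; whether the sets differ in it was not tested. With the term UHRF1 passed when no gene was filtered out for low counts (adjusted p = 0.00134) or without MT_mock replicate 1 (adjusted p = 0.0423), its highest MT_mock library, where the log2 difference was 1.44. Without MT_mock replicate 3, its lowest, the log2 difference was 0.47 (adjusted p = 0.597), and no other library left out gave a call.

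The TET genes had negative log2 differences in B412_mock and none passed. TET1 was at 5.66, 1.53 and 4.86 CPM in MT_mock and at 2.2 and 3.19 CPM in B412_mock, with a log2 difference of -0.73 ± 0.613 (SE) with the term (edgeR adjusted p = 0.643). TET2, the TET gene most often mutated in myeloid malignancy, was at 3.64, 8.46 and 11.4 CPM against 2.83 and 7.13 CPM, a log2 difference of -0.90 ± 0.434 (SE, edgeR adjusted p = 0.373). The groups overlapped for both, and within each set B412_mock was below the MT_mock mean, although in set 1 MT_mock replicate 2 was lower still for TET1. TET3 was at 21.8, 22.3 and 117 CPM against 23.9 and 68.3 CPM. Its log2 difference of -0.29 ± 0.23 (SE, edgeR adjusted p = 0.617) joined 0.14 within set 1 and -0.85 within set 2. Leaving out 1 MT_mock library moved these values: with the term TET1 was at -0.08 without replicate 1, TET2 at -0.57 without replicate 2 and TET3 at 0.07 without replicate 3, and TET3 was at -0.68 and 0.03 without B412_mock replicates 1 and 2. TET1 rested on 22 to 84 counts per library here, and its 22 counts in MT_mock replicate 2 have a 95% Poisson interval of 13.8 to 33.3 for counting error alone.

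Over the 9 genes, 3 had no overlap between the groups, UHRF1 and IDH2 higher and DNMT3A lower, while 11.1% of all genes tested had none (5.7% higher and 5.43% lower). In 8 of 9 genes, all but TET3, the difference had the same sign within both library sets, 4 higher (DNMT1, DNMT3B, UHRF1 and IDH2) and 4 lower (DNMT3A, TET1, TET2 and IDH1). The same held for 64.1% of all genes tested (32.1% higher and 32% lower).

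**Figure D3:**
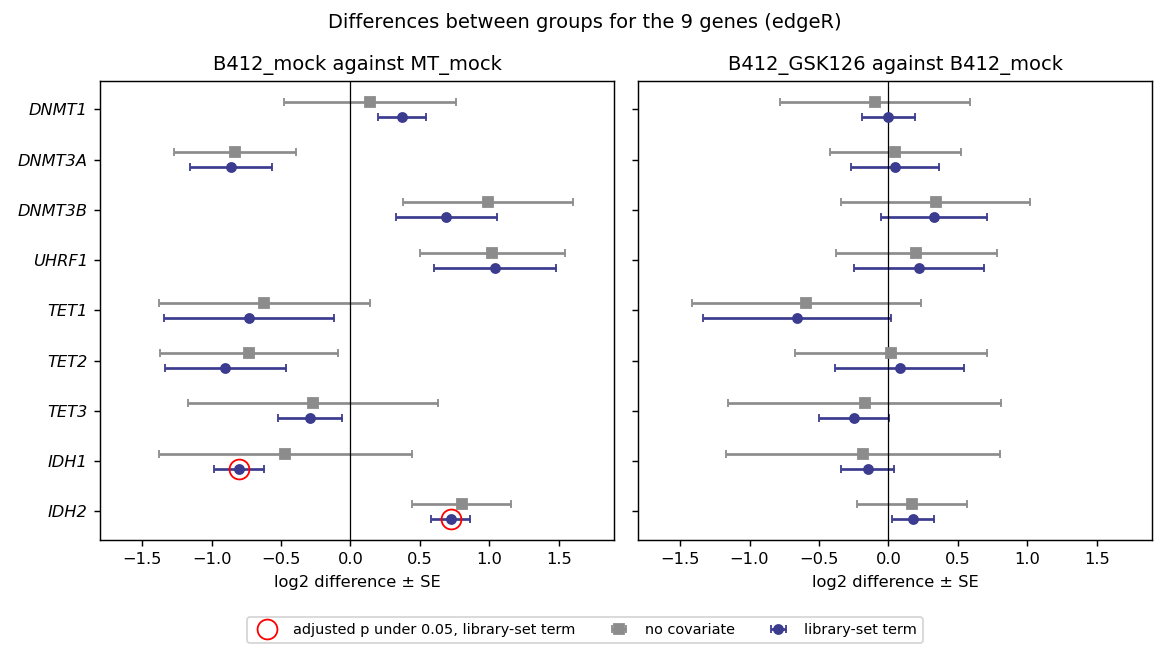
Log2 differences (x axis) of the 9 genes (y axis) in both comparisons, from edgeR without covariate (grey squares) and with the library-set term (blue circles); bars are ± 1 SE, and red rings mark adjusted p under 0.05 with the term. IDH1 at -0.80 and IDH2 at 0.72 are ringed on the left, and no gene is ringed on the right.

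B412_GSK126 was then set against B412_mock, to ask whether these genes respond to the EZH2 inhibitor in PLZF/RARA cells. None of the 9 passed, with or without the library-set term, beside 0% of all genes in either fit. None had an unadjusted p under 0.05 in edgeR, against 0.237% of all genes without the term and 3.43% with it, and DESeq2 and limma-voom called 0 of 9 in each design. All 9 overlapped between the groups, while 12.5% of all genes did not. The 9 had a median log2 difference of 0.05 with the term, beside 0.012 for all genes, and 5 of 9 had the same sign within both sets, beside 57% of all genes. The groups hold 2 libraries each, so these values do not show that the genes were unaffected.

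IDH2 was at 409 and 613 CPM with GSK126 in sets 1 and 2, against 338 and 563 CPM in B412_mock, a log2 difference of 0.18 ± 0.151 (SE) with the term (edgeR adjusted p = 1). IDH1 was at 24.4 and 99.9 CPM against 25.6 and 115 CPM, with -0.15 ± 0.193 (SE). Within each set the GSK126 library was thus a little higher for IDH2 and a little lower for IDH1. DNMT3B was at 5.94 and 18.1 CPM against 4.79 and 14 CPM, higher in both sets by 0.28 and 0.35, with 0.33 ± 0.381 (SE) in the fit. DNMT1, at 445 and 297 CPM, had a log2 difference of 0.00 ± 0.19 (SE) and opposite signs in the sets, -0.25 and 0.21. DNMT3A was at 9.46 and 11.4 CPM, against 8.64 and 11.4 CPM, with 0.05 ± 0.316 (SE).

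UHRF1 was at 26.6 and 64.6 CPM with GSK126 against 35.2 and 41.3 CPM, with log2 differences of -0.42 within set 1 and 0.63 within set 2. Its fitted difference was 0.22 ± 0.466 (SE, edgeR adjusted p = 1). TET1 had 13 and 37 counts with GSK126 against 28 and 43, with a log2 difference of -0.66 ± 0.677 (SE), and its 13 counts have a 95% Poisson interval of 6.92 to 22.2. TET2 was at 3.81 and 6.23 CPM against 2.83 and 7.13 CPM, and TET3 at 18.7 and 64.3 CPM against 23.9 and 68.3 CPM. Their log2 differences were 0.08 ± 0.465 and -0.25 ± 0.252 (SE). With 1 library left out and the term, the difference ranged from -0.77 to 0.92 for UHRF1, from -1.21 to -0.23 for TET1 and from 0.01 to 0.59 for DNMT3B.

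B412_GSK126 against MT_mock shares libraries with both comparisons above and is no independent support for either. With the term IDH2 had a log2 difference of 0.90 ± 0.137 (SE, edgeR adjusted p = 0.00761) and IDH1 one of -0.95 ± 0.182 (SE, edgeR adjusted p = 0.0253), the 2 of 9 genes called, beside 1.9% of all genes. Without B412_GSK126 replicate 1 neither was called (adjusted p = 0.0569 and adjusted p = 0.0859). IDH1 also lost its call without MT_mock replicate 3 (adjusted p = 0.0567), B412_mock replicate 1 (adjusted p = 0.0673), B412_mock replicate 2 (adjusted p = 0.0665) or B412_GSK126 replicate 2 (adjusted p = 0.163). DNMT3B had 1.02 ± 0.361 (SE, adjusted p = 0.204), UHRF1 1.26 ± 0.458 (SE, adjusted p = 0.238), DNMT3A -0.81 ± 0.29 (SE, adjusted p = 0.212) and TET1 -1.38 ± 0.645 (SE, adjusted p = 0.343), all from edgeR. UHRF1 passed with DESeq2 (adjusted p = 0.0354), with no filter (adjusted p = 8.33e-05), without MT_mock replicate 1 (1.62, adjusted p = 0.0273) and without B412_GSK126 replicate 1 (2.14, adjusted p = 0.0418), and was at 0.59 and 0.45 without MT_mock replicate 3 or B412_GSK126 replicate 2. Without MT_mock replicate 3 DNMT3A was at -0.50 and DNMT3B at 0.63, and TET1 was at -0.80 without MT_mock replicate 1 and at -0.91 without B412_GSK126 replicate 1. DNMT3A, DNMT3B and IDH2 had no overlap between these groups, 3 of 9 beside 12.1% of all genes, and 9 of 9 had the same sign within both sets, beside 60.4%.

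Between the library sets, 5 of the 9 genes differed in the fit with group and set, beside 61.5% of all genes (31.4% higher and 30.1% lower in set 2), a share that the choice of the sets partly builds in. For set 2 against set 1 the log2 difference was -1.24 ± 0.153 (SE) for DNMT1, 1.87 for IDH1, 1.80 for TET3, 1.01 for DNMT3B and 0.48 for IDH2. For all of these but IDH2 it was larger in size than the difference between the lines, and UHRF1 had -0.07 ± 0.39 (SE).

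The wider pathway was read from lists of related genes. None of their members passed in B412_mock against MT_mock or in B412_GSK126 against B412_mock, with or without the term. Of 15 tested genes of maintenance and recruitment, 12 had positive log2 differences in B412_mock with the term, with a median of 0.20. Of all genes tested 48.9% were positive there. LIG1, the ligase that seals replicated DNA, came nearest, with 0.57 ± 0.157 (SE, edgeR adjusted p = 0.0938) and 115 to 149 CPM against 71.6 to 105 CPM in MT_mock. CDCA7, a partner of the remodeller HELLS, had 0.46 ± 0.188 (SE). With GSK126 8 of the 15 were positive, beside 51.8% of all genes. HELLS itself, a chromatin remodeller, had the lowest p, with 0.94 ± 0.382 (SE, edgeR adjusted p = 1), next to USP7, a deubiquitinase that binds DNMT1 and UHRF1, with 0.22 ± 0.186 (SE). HELLS rose in B412_GSK126 against MT_mock with the term, by 1.67 ± 0.359 (SE, edgeR adjusted p = 0.0388), though these groups overlapped.

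S phase genes were listed because DNMT1 and UHRF1 are themselves known to be induced with replication. With the term they had positive differences in 14 of 14 in B412_mock, with a median of 0.29, where 48.9% of all genes were positive. Within both sets 10 of 14 were higher, beside 32.1% of all genes. CCNE2, RRM2 and CDC6 were lower within set 1, at -0.30, -0.16 and -0.10, but at 1, 1.26 and 1.2 within set 2. For all of the list but MKI67 the difference was larger within set 2, where replicate 3 is the only MT_mock library. CDT1, a replication licensing factor, had 0.48 ± 0.144 (SE, edgeR adjusted p = 0.121) and E2F1, a transcription factor of S phase genes, 0.82 ± 0.31 (SE, adjusted p = 0.238). MKI67, a marker of cycling cells, had 0.02 ± 0.163 (SE), with 0.21 within set 1 and -0.22 within set 2. With GSK126 11 of 14 were positive, beside 51.8% of all genes, with a median of 0.05. CDT1 had -0.32 ± 0.158 (SE) and MKI67 -0.21 ± 0.178 (SE). Whether the share of cells in S phase has a part in the UHRF1 and DNMT1 values was not tested, and in bulk RNA fewer cells of a kind and less RNA per cell cannot be told apart.

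Genes of 2-oxoglutarate metabolism had negative differences in 12 of 16 in B412_mock, with a median of -0.18, and positive ones in 15 of 16 with GSK126, with a median of 0.22. The 2 comparisons share the B412_mock libraries, and 51.1% of all genes were negative in the former and 51.8% positive in the latter. Within both sets 10 of 16 were lower in the former, beside 32% of all genes. In the latter 11 of 16 were higher within both sets, where 57% of all genes had the same sign in either direction. IDH3B, a subunit of the NAD-dependent isocitrate dehydrogenase, was at 209 to 253 CPM in B412_mock against 322 to 382 CPM in MT_mock, without overlap, with -0.60 ± 0.152 (SE, edgeR adjusted p = 0.0695). SDHA, a subunit of succinate dehydrogenase, had -0.34 ± 0.151 (SE). With GSK126 OGDH, which consumes 2-oxoglutarate, had 0.58 ± 0.234 (SE, edgeR adjusted p = 1) and SDHD 0.37 ± 0.192 (SE).

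Methyl-CpG readers and their relatives (8 tested), genes of demethylation and repair (15) and methyl-donor genes (12) were read in the same way. Their medians were 0.05, -0.03 and 0.03 in B412_mock and 0.01, 0.07 and 0.04 with GSK126. CXXC5, a CpG-binding protein that interacts with TET2, had the largest negative value, -1.73 ± 0.48 (SE, edgeR adjusted p = 0.0945), and OGT, the glycosyltransferase bound by TET proteins, had 0.56 ± 0.161 (SE, adjusted p = 0.109). MBD3 and MBD2 had 0.66 ± 0.235 and -0.36 ± 0.184 (SE), and SHMT2, of one-carbon metabolism, had 0.27 ± 0.119 (SE). With GSK126 the lowest p in these lists belonged to MBD2 at 0.47 ± 0.196, ZBTB4 at -0.22 ± 0.246, NEIL2 at 0.84 ± 0.376, XRCC1 at -0.40 ± 0.191, MTAP at 0.40 ± 0.197 and MTHFD1 at 0.34 ± 0.179 (SE each, edgeR adjusted p = 1).

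Germline genes that DNA methylation is known to keep silent in somatic cells were read beside the enzymes. Of 18 such genes 2 passed the filter on low counts, SYCP3 and MAEL. For SYCP3, of the meiotic chromosome axis, the counts were 69, 71 and 21 for MT_mock, 38 and 28 for B412_mock and 73 and 21 for B412_GSK126. MAEL, of the piRNA pathway, had 23, 3 and 12, then 6 and 22, then 15 and 22 counts. The groups overlapped for both genes. MAGEA1, MAGEA3, MAGEA4, MAGEC1, CTAG1B, BRDT, TEX101 and SYCE1 had 0 counts in all 7 libraries, where 3 counts would be 0.202 to 0.236 CPM. Where a gene has near-identical copies, 0 counts do not show that it was silent. The remaining 8 had 0 to 6 counts per library. GAGE1, of a family with near-identical copies, had 6 in MT_mock replicate 1 and 2 in B412_mock replicate 1, TDRD1 had 5 in MT_mock replicate 2, and DDX4 had 3 and 1 in B412_mock and 0 in the other 5 libraries.

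Among 90 other listed genes, the profiles most like those of the 9 over the 7 libraries are given as a description; the points share libraries and fall into the 2 library sets. DNMT1 was nearest to the replicative helicase genes MCM4 and MCM7 (Pearson r = 0.99 each) and DNMT3B to MCM6 (r = 0.99) and SHMT1 (r = 0.95). UHRF1 was nearest to ZBTB24 (r = 0.97) and TYMS (r = 0.87), IDH2 to SHMT2 (r = 0.95) and DNMT3B (r = 0.90), and IDH1 to XRCC1 (r = 0.95) and GLUD1 (r = 0.94). TET3 was nearest to MAT2B (r = 0.98) and UHRF2 (r = 0.95). DNMT3A and TET2 were nearest to SDHA (r = 0.81 and r = 0.86), followed by GOT1 (r = 0.68) and FH (r = 0.79), and TET1 to GOT1 (r = 0.75) and CXXC5 (r = 0.66).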

How the data were processed

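RNA of 7 U937 libraries was extracted with a column kit, made into cDNA with a SMART-Seq v3 kit, sheared and built into libraries that do not mark strand, per the labels' protocols. FastQC, Subread, featureCounts and hg19 are named in the submitters' processing notes; their versions and the gene annotation were not stated there. Unnormalized whole-number counts by gene symbol were deposited by the authors; no molecular identifiers are named, so intervals cover counting error only. Groups and replicate numbers came from the sample titles.

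Counts were filtered with filterByExpr (minimum count 10, minimum total 15), which kept 13521 genes, scaled by TMM and fitted by the robust, two-sided quasi-likelihood test of edgeR 4.0.16 in R 4.3.3 over all 7 libraries, without covariate and with the library set, the side of 0 on the leading principal component of log2 CPM computed with a prior count of 2. SE is the log2 difference divided by the root of F. DESeq2 1.42.0, limma-voom 3.58.1, RLE scaling, no filter, fits of 2 groups, a replicate block and leaving out each library were alternatives. The procedure was tested on simulated data with the library sets given in advance. Such data cannot show whether p-values are too small when the sets come from the same counts. The 9 genes and the related lists were chosen with earlier results of these data known; of each list, called genes, or else the 2 with the lowest p with the library-set term per comparison, are named (1 such gene is not reported here), and MKI67, SPI1, CSF1R and other markers besides. PCLAF was read under its older symbol KIAA0101. Exon lengths and principal starts came from GENCODE release 29 on GRCh38, so no coordinates of the hg19 counts are given.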

Additional observations from a re-analysis of the deposited data

How the results depend on the processing

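The calls depended on the library-set term, while the fit without it was set as the main one. Without it, B412_mock against MT_mock gave 0 genes in edgeR, 95 with DESeq2 and 5 without the filter, against 318 genes and 2 of the 9 with the term; B412_GSK126 against MT_mock gave 0 genes in edgeR and 65 with DESeq2, against 257 genes and 2 of the 9 with it. With the term, DESeq2 called 684, 4 and 604 genes in B412_mock against MT_mock, B412_GSK126 against B412_mock and B412_GSK126 against MT_mock, and omitting the filter gave 881, 34 and 892. Limma-voom with the term called 1 gene for GSK126 and 1 of the 9 in B412_mock against MT_mock; fits of only 2 groups called 14 genes for GSK126, and 102 genes and 1 of the 9 in B412_GSK126 against MT_mock. The cause was not tested. With 1 library left out, the counts with the term ranged from 33 to 587, 0 to 3 and 72 to 693 genes, and from 0 to 3, 0 to 0 and 1 to 3 of the 9; without it they stayed at 0.

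Of 324 fits of a member under other settings 6 changed sign, none of them called. TET3 had 0.04 with limma-voom in B412_mock against MT_mock, and DNMT1 had 0.01 for GSK126 with the term and no filter. The replicate block gave -0.38 for DNMT1 and 0.73 for TET3 in B412_mock against MT_mock and -0.42 and 0.51 in B412_GSK126 against MT_mock, and called 0 genes in all 3 comparisons, as the fit without it did. Deviations of same-numbered libraries correlated at 0.85 between B412_mock and B412_GSK126, but at 0.66 and -0.63 between MT_mock and B412_mock, so the numbers do not pair the groups throughout. In B412_mock and B412_GSK126 the number coincides with the library set, and for these groups the library-set term is also a block on the number. Of 378 fits with 1 library left out 35 changed sign. Without the term the ranges were -0.61 to 0.63 (DNMT1), -1.08 to 0.93 (TET3) and -1.76 to 0.43 (IDH1) in B412_mock against MT_mock; -0.58 to 0.65 (DNMT1), -0.05 to 0.16 (DNMT3A), -0.54 to 1.17 (DNMT3B), -0.44 to 0.70 (TET2), -1.18 to 0.63 (TET3), -0.44 to 0.65 (UHRF1), -1.38 to 1.11 (IDH1) and -0.07 to 0.47 (IDH2) for GSK126; and -0.39 to 0.38 (DNMT1), -1.46 to 0.76 (TET3) and -1.85 to 0.25 (IDH1) in B412_GSK126 against MT_mock. With the term they were -0.68 to 0.07 (TET3) in B412_mock against MT_mock, and -0.35 to 0.31 (DNMT1), -0.22 to 0.31 (DNMT3A), -0.11 to 0.32 (TET2), -0.58 to 0.12 (TET3) and -0.77 to 0.92 (UHRF1) for GSK126. Depth limits TET1 most, at 13 to 84 counts per library.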
